A study of Homo sapiens with 12 samples.

Results

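The genes of DNA replication licensing and of the replication fork were followed in WA26 human embryonic stem cells (hESCs) with and without UBQLN1. The list holds 45 genes, named by symbol, out of the 28278 genes in the deposited count table. All 45 passed the filter on low counts, which left 15916 genes for testing. The symbols were named by function, with earlier results of these data already known.

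WA26 is an established hESC line, and UBQLN1 encodes ubiquilin 1, which shuttles ubiquitin-marked proteins to the proteasome. Bulk RNA of 4 groups was sequenced, with 2 libraries a group. WT and UBQLN1-/- (KO) cells were both grown untreated at normal O2. Further KO cells were either kept at 5% O2 or given NAC (N-acetyl-L-cysteine, a thiol antioxidant). No further allele was named for any group. The labels thus set WT and KO apart by the UBQLN1 deletion, and the 3 KO groups by culture. A difference in clone, passage or batch between groups could not be told apart from these. The knockout was made with CRISPR-Cas9 and clones were picked, but the labels do not say which clone a library came from. Nor do they give the dose of NAC, the passage, the time at 5% O2 or the oxygen level of the NAC cultures. The study's text describes low O2 both as culture over many passages and as culture for a day before sequencing. For NAC it describes culture over many passages, with DMSO as vehicle, whereas the labels call the normal O2 groups untreated. The labels also list WT cells under both treatments; these were not analysed here, so no effect of culture could be compared between genotypes.

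Before S phase, the origin recognition complex (ORC), CDC6 and CDT1 load the MCM2-7 ring onto DNA, a step called licensing, and geminin (GMNN) blocks CDT1 so that origins fire only once. CDC45 and the GINS complex then join MCM2-7 to form the active helicase. Polymerase alpha-primase starts each strand, the RFC clamp loader sets the PCNA ring on DNA, polymerases epsilon and delta copy the leading and the lagging strand, RPA covers single-stranded DNA, and FEN1 and LIG1 process and seal Okazaki fragments. In hESCs, which cycle fast with a short G1 phase, many of these genes are expressed at high levels.

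The libraries held 31236968 to 41639350 counts, and the lowest count of any replication gene in any library was 688. Levels are given as CPM, the count scaled to a common library size with TMM factors. UBQLN1 was at 221 and 197 CPM in WT, and at 42.3 to 62.4 CPM in the 6 KO libraries. The pluripotency markers, 12 genes including POU5F1, NANOG and SOX2, summed to 6026 to 7144 CPM, lowest with NAC. DNMT3B alone was at 2553 and 2455 CPM in untreated KO and at 1136 and 1418 CPM with NAC. Against untreated KO, 3 of the 12 were called higher with NAC and 5 lower. The endoderm list, 7 genes, summed to 1.41 to 4.05 CPM. The mesoderm list, 7 genes, summed to 57.1 to 126 CPM, mostly from KDR. KDR was at 116 and 121 CPM in WT and 67.8 and 67.7 in KO. At 5% O2 it was at 48.9 and 53.9 CPM, and with NAC at 81.4 and 71.8. SOX17 (endoderm) and NEUROG2 (neuroectoderm) had no count in any library. The neuroectoderm list, 7 genes, summed to 147 to 498 CPM, mostly from NES, which was at 266 and 226 CPM in WT, 451 and 422 in KO, 212 and 287 at 5% O2, and 126 and 129 with NAC; the part of this difference in the results below was not tested. Replicate 1 of the NAC group stood apart: 12 mesenchymal markers summed to 1198 CPM there and to 588 to 682 CPM in the other 7 libraries. DCN was at 47.2 CPM in it and at 0 elsewhere, and COL3A1 was at 29.1 CPM in it and at most 0.21 elsewhere. The counts and medians of the list with NAC, as counted, are therefore also given without that library. Those of other gene lists, and those after the trend removal described below, are given only with it. In bulk RNA, fewer cells in S phase and less RNA per cell cannot be told apart. The study's cell cycle analysis found a slightly lower share of S-phase cells in KO than in WT hESCs. Its part in the values below was not tested.

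Per kilobase of transcript, the levels in WT hESCs spanned from 272 CPM per kb for MCM7 down to 7.0 for ORC4. Helicase subunits held 4 of the 5 highest ranks, with MCM3 at 182, MCM5 at 140 and MCM4 at 126 CPM per kb, and PCNA at 146. The lowest levels after ORC4 were those of POLD3 (8.76) and GINS3 (9.77). Subunits of the same complex were not level with each other: POLD2 stood at 119, POLD1 at 54.4 and POLD3 at 8.76 CPM per kb, all of them parts of polymerase delta. Summed over the 45 genes, CPM was 6740 and 6534 in WT, 6330 and 6282 in KO, 7041 and 7082 in KO at 5% O2, and 6918 and 7068 in KO with NAC. Both untreated KO libraries were thus lowest, and the groups at 5% O2 and with NAC overlapped.

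**Figure D1:**
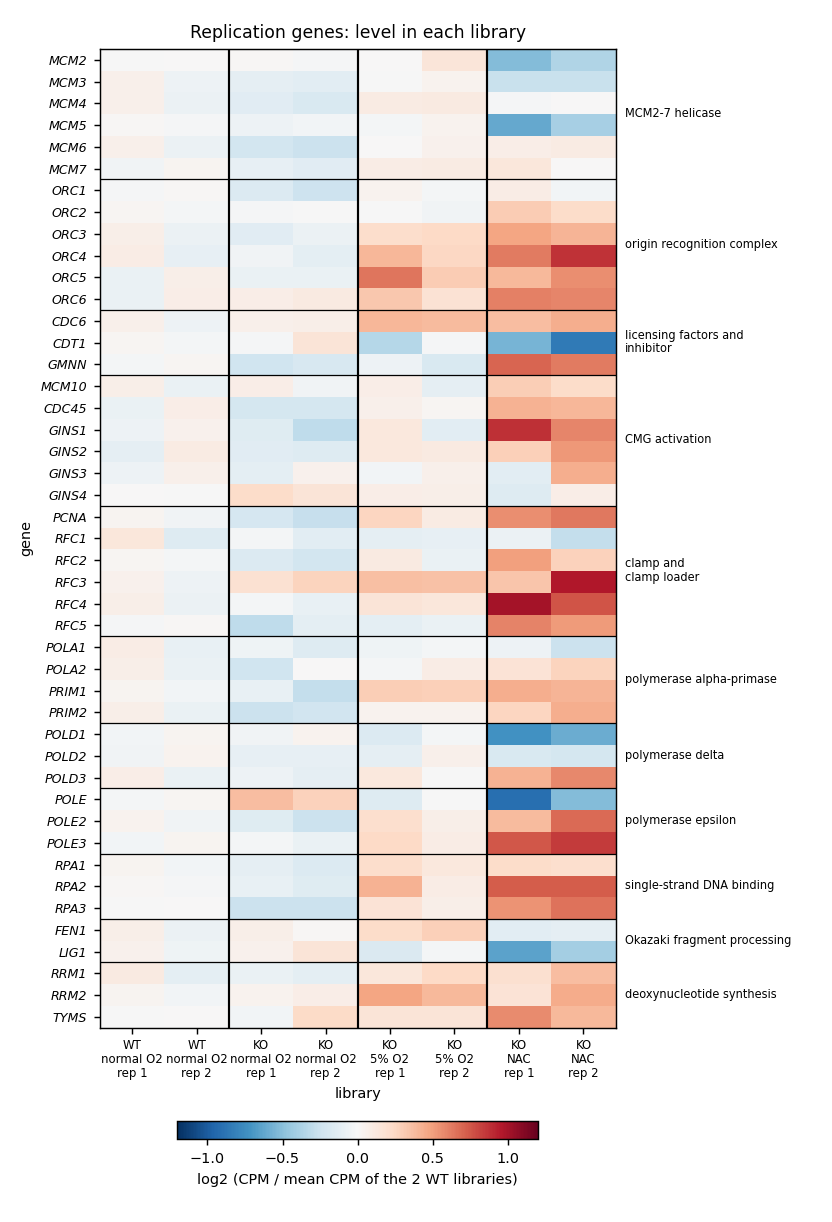
Level of each of the 45 replication genes (rows, by role) in each of the 8 libraries (columns), as log2 of its CPM over the mean CPM of the 2 WT libraries. Red is above and blue below that mean. The NAC columns hold the strongest colours in both directions, such as RFC4 and GINS1 in red and POLE and CDT1 in blue.

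Many replication genes share a promoter element bound by E2F factors, so the promoter letters of 4 genes are shown as examples. In the NAC comparison, 2 of them rose (PCNA and RFC4) and 2 fell (POLE and CDT1). Only windows with a match were shown, whereas POLE3, which also rose, and POLD1, which also fell, had no match. Each line is the 150 bases that end at the base before the RefSeq start (GRCh38.p14), read 5′ to 3′ on the strand of the gene. Capitals mark matches to the E2F-type letters TTTCGCGC, TTTGGCGC, TTTCCCGC, TTTGCCGC and GGCGGGAA, searched on both strands, of which TTTCCCGC and GGCGGGAA can overlap.
PCNA, chr20:5126623-5126772, minus strand: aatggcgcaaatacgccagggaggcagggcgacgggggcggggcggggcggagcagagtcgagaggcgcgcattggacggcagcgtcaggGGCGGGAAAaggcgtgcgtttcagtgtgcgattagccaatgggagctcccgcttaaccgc
RFC4, chr3:186806483-186806632, minus strand: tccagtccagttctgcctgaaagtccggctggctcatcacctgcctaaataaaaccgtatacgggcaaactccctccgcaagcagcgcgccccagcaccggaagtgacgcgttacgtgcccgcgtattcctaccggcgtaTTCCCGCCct
POLE, chr12:132687343-132687492, minus strand: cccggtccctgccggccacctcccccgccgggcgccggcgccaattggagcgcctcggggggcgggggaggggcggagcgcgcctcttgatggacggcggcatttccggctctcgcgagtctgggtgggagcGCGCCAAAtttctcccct
CDT1, chr16:88803639-88803788, plus strand: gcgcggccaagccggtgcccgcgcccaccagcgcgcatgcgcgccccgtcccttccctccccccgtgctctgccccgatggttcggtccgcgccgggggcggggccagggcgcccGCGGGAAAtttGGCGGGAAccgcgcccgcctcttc

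RefSeq windows from 250 bases before to 50 after the start were at hand for 39 of the 45 genes. E2F-type letters stood in a window of 23 of the 39 (59.0%), against 6.67% of 27305 genes with such windows. By the NAC comparison, they stood in 15 of 25 genes that rose and 4 of 5 that fell, and 4 of 9 with no call. The letters CCAAT, on either strand, were also in 23 of the 39 genes, against 39.7% of all genes. The cell cycle homology letters TTTGAA or TTCGAA, typical of genes of late cell cycle phases, were in 3 of the 39, against 19.5%. A match describes these letters and is not evidence of binding.

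The first comparison set these genes in KO against WT hESCs at normal O2. None of the 45 was called higher or lower in KO than in WT hESCs at an adjusted p under 0.05 (edgeR quasi-likelihood test, Benjamini-Hochberg over all 15916 genes), where 1.34% of all genes were called higher and 0.622% lower. DESeq2 also called 0 in each direction. At an unadjusted p under 0.05, 1 gene was higher and 6 were lower, against 9.5% and 8.12% of all genes. The log2 fold changes were small, from -0.26 (RPA3) to 0.32 (POLE), with a median of -0.10, where that of all genes tested was -0.0024. Of the 45 values 32 were below 0, against 50.4% of all genes, and both KO libraries were below both WT libraries in 21 genes and above them in 7, against 27% and 27.7% of all genes. Without WT replicate 1 the median was -0.034, and with a trend on transcript length and GC content removed, as described further on, it was -0.064. By a rule of fold and unadjusted p (log2 fold change over 1, p under 0.05), 0 genes were higher or lower, against 1.11% and 1.46% of all genes.

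The genes named here from this comparison were picked after their values were seen. POLE, the catalytic subunit of polymerase epsilon, was at 112 and 117 CPM in WT and at 148 and 139 CPM in KO (log2 fold change 0.32 ± 0.12 SE, adjusted p = 0.183). The KO libraries lay above the WT libraries. POLE did pass with no filter on low counts (adjusted p = 0.038) and when the KO and WT libraries were fitted alone (adjusted p = 0.029). PCNA, the sliding clamp, was at 191 and 181 CPM in WT and at 161 and 153 CPM in KO (-0.24 ± 0.09, adjusted p = 0.180). RPA3, the smallest RPA subunit, was at 48.8 and 49.1 CPM in WT and at 40.8 in both KO libraries (-0.26 ± 0.09, adjusted p = 0.172). For both genes the groups did not overlap, but the difference did not pass the test over all genes.

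The precision of the comparison can be read from its intervals. All 45 of the 95% intervals lay within 1 log2 unit of no change, and their outermost bounds were -0.48 (GINS1, 0.716-fold) and 0.58 (POLE, 1.5-fold). A change of any replication gene past those bounds was therefore outside its interval. The smallest adjusted p was 0.145, for MCM6.

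**Figure D2:**
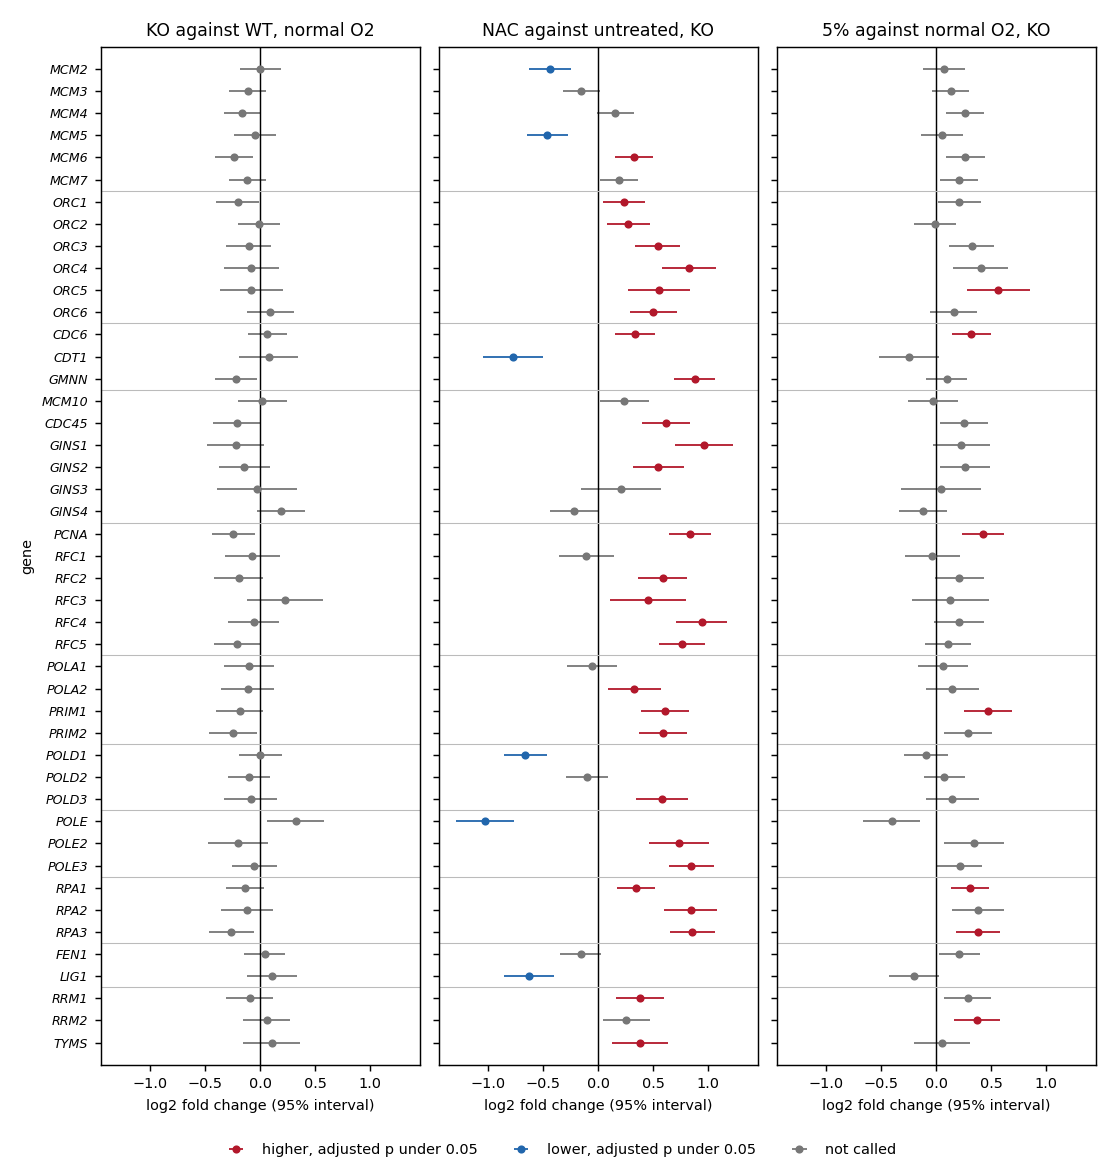
Log2 fold change (points) with 95% interval (lines) of each replication gene in KO against WT, in KO with NAC against untreated KO, and in KO at 5% against normal O2. No point is coloured as called in the left panel, 28 are red and 6 blue in the middle panel, and 7 are red in the right panel; the untreated KO libraries enter all 3 panels.

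Most of the list was called with NAC as counted, in both directions. Against untreated KO hESCs, 28 of the 45 genes rose and 6 fell at an adjusted p under 0.05, where 23.8% of all genes tested rose and 20.8% fell. Without the NAC library that stood apart the counts were 27 and 6 and the median log2 fold change was 0.39; ORC1, ORC2 and TYMS were then not called, and GINS3 and RRM2 were higher. The median log2 fold change was 0.35, against 0.02 over all genes, and the values ran from -1.03 (POLE) to 0.96 (GINS1). The groups did not overlap for 32 genes that were higher and 10 that were lower, against 36.2% and 34% of all genes. By the rule of fold and unadjusted p only POLE passed, as lower, where 3.63% of all genes were higher and 5.39% lower. By role, all 6 ORC subunits, all 3 RPA subunits and 5 of 6 genes of the clamp and clamp loader rose, whereas MCM2-7 was split, with 1 higher, 2 lower and 3 not called. With a trend on transcript length and GC content removed, as described further on, 18 of the 45 genes were higher and 1 was lower. Of all 15916 genes, 2232 were then higher and 1888 lower.

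Among the licensing genes, the inhibitor rose and the loader it blocks fell. GMNN (chromosome 6, 24774931 to 24786099, plus strand, hg38) was at 90.1 and 93.0 CPM in untreated KO and at 173 and 164 CPM with NAC (log2 fold change 0.88 ± 0.09 SE, adjusted p = 2.41e-05). CDT1 (chromosome 16, 88803789 to 88809258, plus strand) was at 201 and 226 CPM untreated and at 137 and 112 CPM with NAC (-0.77 ± 0.12, adjusted p = 0.000377). Neither pair of groups overlapped. With the trend on transcript length and GC content removed, as described further on, GMNN was at 0.26 and still called, and CDT1 was at -0.32 and not called (adjusted p = 0.0714). CDC6, the ATPase that works with ORC in loading, rose from 163 and 164 CPM to 202 and 211 CPM (0.34 ± 0.08, adjusted p = 0.00543). The ORC subunits rose by 0.24 (ORC1) to 0.83 (ORC4) on the log2 scale. ORC4 went from 44.6 and 42.2 CPM to 70.6 and 83.4 CPM. ORC1, the ATPase that varies with the cell cycle, was nearest to the threshold (adjusted p = 0.0492).

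The MCM2-7 subunits, which act together as a single ring, did not move together. MCM5 was at 466 and 476 CPM in untreated KO and at 317 and 368 CPM with NAC (-0.46 ± 0.09, adjusted p = 0.00110). MCM2 was at 393 and 384 CPM untreated and at 270 and 303 CPM with NAC (-0.44 ± 0.09, adjusted p = 0.00147). MCM6 was at 295 and 288 CPM untreated and at 363 and 368 CPM with NAC (0.33 ± 0.08, adjusted p = 0.00566). MCM3, MCM4 and MCM7 had log2 fold changes of -0.15, 0.16 and 0.19 and were not called.

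Of the genes that turn the loaded ring into the active helicase, GINS1, GINS2 and CDC45 rose. GINS1 (chromosome 20, 25391008 to 25452700, plus strand) was at 126 and 113 CPM untreated and at 255 and 209 CPM with NAC (0.96 ± 0.12, adjusted p = 7.16e-05). It had the highest log2 fold change of the list. CDC45 and GINS2 rose by 0.62 and 0.55. GINS3 (0.21), GINS4 (-0.22) and MCM10 (0.24), a loading and activation factor, were not called, so the 4 subunits of GINS did not all change. GINS3 was at 19.9 and 22.3 CPM untreated and at 19.7 and 29.1 CPM with NAC, with overlap.

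At the clamp and its loader, the subunits RFC2 to RFC5 and PCNA rose. RFC4 (chromosome 3, 186789880 to 186807058, minus strand) was at 47.3 and 45.2 CPM untreated and at 96.1 and 81.6 CPM with NAC (0.94 ± 0.10, adjusted p = 3.86e-05). PCNA was at 161 and 153 CPM untreated and at 273 and 289 CPM with NAC (0.84 ± 0.09, adjusted p = 3.00e-05). RFC3, at 61.1 and 64.4 CPM untreated, differed between the NAC libraries, at 67.4 and 104 CPM (0.45 ± 0.16, adjusted p = 0.0364). RFC1, the largest subunit, was at 85.2 and 79.4 CPM untreated and at 82.0 and 70.8 CPM with NAC, and its groups overlapped (-0.11 ± 0.11, adjusted p = 0.484).

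Polymerase subunits split by gene within the same enzyme. POLE (chromosome 12, 132623753 to 132687376, minus strand) was at 148 and 139 CPM untreated and at 61.1 and 79.6 CPM with NAC (-1.03 ± 0.12, adjusted p = 4.95e-05). POLE3, a small histone-fold subunit of the same polymerase (chromosome 9, 113407235 to 113410675, minus strand), was at 58.6 and 56.6 CPM untreated and at 100.4 and 107 CPM with NAC (0.85 ± 0.09, adjusted p = 3.82e-05). POLE2, the second subunit in size, rose by 0.74 ± 0.12 (adjusted p = 0.000549). In polymerase delta, the catalytic subunit POLD1 (chromosome 19, 50384204 to 50418018, plus strand) fell from 182 and 193 CPM to 113 and 124 CPM (-0.66 ± 0.09, adjusted p = 0.000128). The accessory subunit POLD3 rose by 0.58 ± 0.11 (adjusted p = 0.00110), and POLD2 was not called (-0.10). In polymerase alpha-primase, the primase subunits PRIM1 (0.61) and PRIM2 (0.59) and the accessory subunit POLA2 (0.33) rose, and the catalytic subunit POLA1 was not called (-0.05).

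The catalytic subunits of all 3 replicative polymerases thus had log2 fold changes below 0, and 2 of them passed the test, while 6 of the 7 other subunits on the list rose. The small subunits POLD4 (-0.11) and POLE4 (0.30), which are not on it, were not called. This grouping was made after the values were seen, and it counts PRIM1, the catalytic primase subunit, among the other subunits. With the length and GC trend described further on removed, POLE, POLD1 and POLA1 were not called (-0.31, -0.08 and -0.10). Of the 6 listed subunits that rose, POLA2, POLD3 and POLE3 were then still called. PRIM2 was at 0.06, and PRIM1 (-0.22) and POLE2 (-0.03) were below 0. These 3 catalytic subunits have the longest transcripts of their enzymes or the highest GC content, a point taken up below.

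RPA rose as a whole. RPA3 (chromosome 7, 7636518 to 7718607, minus strand) was at 40.8 CPM in both untreated KO libraries and at 71.0 and 76.9 CPM with NAC (0.86 ± 0.09, adjusted p = 3.44e-05). RPA2 was at 63.9 and 61.2 CPM untreated and at 112 CPM in both NAC libraries (0.84 ± 0.11, adjusted p = 9.07e-05). RPA1, the large subunit that holds most of the DNA contacts, was at 236 and 227 CPM untreated and at 297 and 293 CPM with NAC (0.35 ± 0.08, adjusted p = 0.00364). No group overlapped. Without untreated KO replicate 2, the adjusted p of RPA1 was 0.0522.

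Of the Okazaki fragment enzymes, the ligase LIG1 fell from 120 and 128 CPM to 73.7 and 87.0 CPM (-0.63 ± 0.10, adjusted p = 0.000479). The flap nuclease FEN1 was not called (-0.16 ± 0.09, adjusted p = 0.154). Of the deoxynucleotide enzymes, RRM1 (0.38) and TYMS (0.38) rose. RRM2, which limits the rate of ribonucleotide reductase, was at 310 and 319 CPM untreated and at 339 and 411 CPM with NAC. It only just missed the threshold (0.26 ± 0.10, adjusted p = 0.05002).

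**Figure D3:**
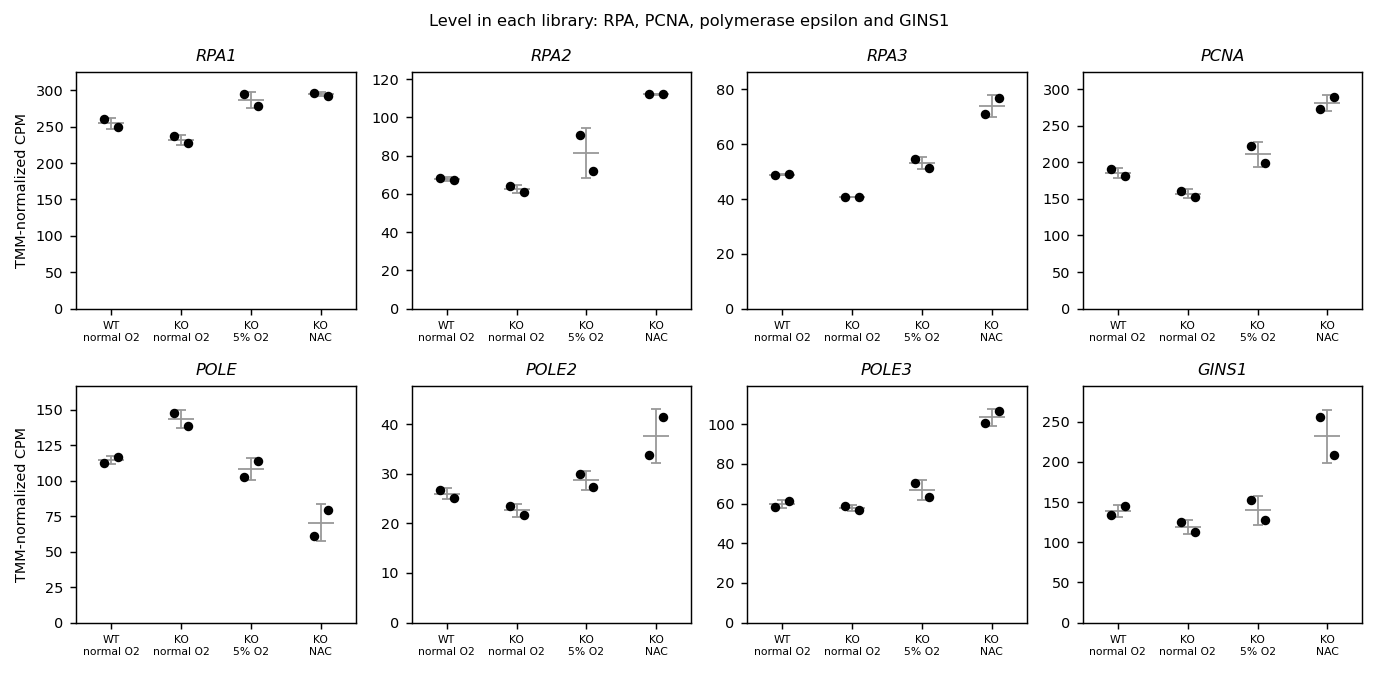
CPM in each library (points) of RPA1, RPA2, RPA3, PCNA, POLE, POLE2, POLE3 and GINS1, with the mean and SD of the 2 libraries of a group (grey bars). Both NAC libraries are above all others for RPA2, RPA3, PCNA, POLE2, POLE3 and GINS1, overlap those at 5% O2 for RPA1, and are lowest for POLE.

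The direction of the NAC calls followed the base composition of the transcripts. The canonical transcripts of the 28 genes that rose had a GC content of 37.4% to 53.7%, with a median of 43.8%. Those of the 6 that fell had 56.3% to 64.8%, with a median of 58.6%, so these ranges did not overlap. Spearman's rho between GC content and log2 fold change was -0.57 across the 45 genes and -0.49 across 15281 genes tested. These genes shared the same libraries and are not independent replicates.

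The libraries themselves leaned the same way. Spearman's rho between GC content and a library's deviation from the mean of all libraries was -0.45 and -0.41 with NAC, 0.30 and 0.46 in untreated KO, 0.17 and 0.40 in WT, and -0.16 and 0.19 at 5% O2. The lean thus differed between replicates of a group, at 5% O2 in sign.

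**Figure D4:**
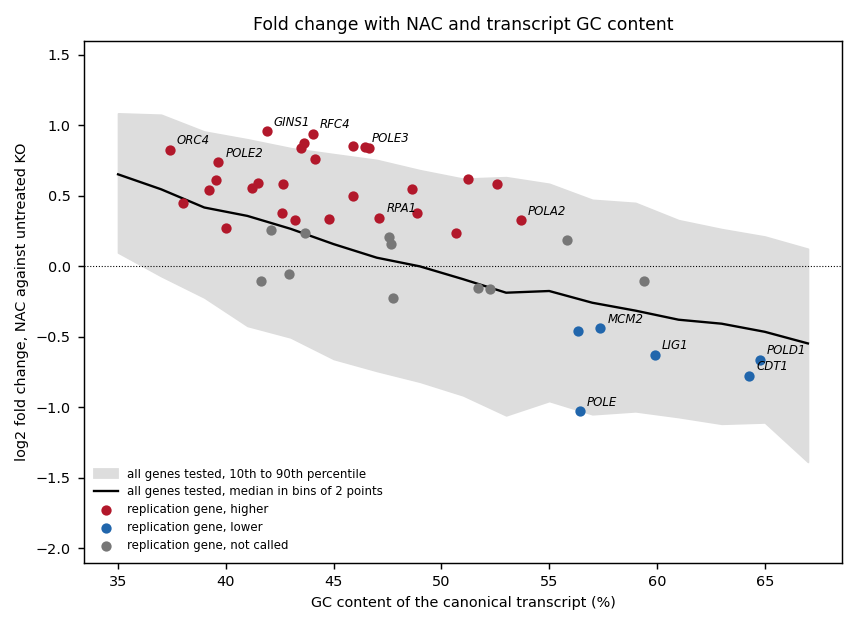
Log2 fold change with NAC in KO hESCs against the GC content (%) of each gene's canonical transcript, for the 45 replication genes (points) over the median (line) and the 10th to 90th percentile (grey) of all genes tested. The 6 genes that fell lie at 56.3% GC or more and the 28 that rose at 53.7% or less. Some that rose, such as GINS1 and RFC4, lie above the grey band.

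A smooth trend of count on GC content and transcript length was then fitted in each library and removed, after which 18 of the 45 genes were higher and 1 was lower with NAC. The median log2 fold change of the list went from 0.35 to 0.08. Of the 28 genes that rose, 16 were still called: ORC1, ORC4, CDC6, GMNN, CDC45, GINS1, GINS2, RFC2, RFC4, RFC5, POLA2, POLD3, POLE3, RPA1, RPA2 and RPA3. All 3 RPA subunits were thus among them, at 0.46, 0.45 and 0.52 for RPA1, RPA2 and RPA3, and GINS1 was at 0.61. MCM4 (0.22) and MCM7 (0.34) became higher, and RFC1 (-0.29) lower.

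None of the 6 genes that fell was still called. POLE was at -0.31 (adjusted p = 0.0509), CDT1 at -0.32 (0.0714), LIG1 at -0.23 (0.0723), MCM5 at -0.13, MCM2 at -0.08 and POLD1 at -0.08. The sign turned in 6 of the 28 that rose, at values that did not pass, namely ORC2, ORC3, ORC5, RFC3, PRIM1 and POLE2. PCNA was at 0.22 (adjusted p = 0.0527). The removal takes out any change that runs with length or GC content, whatever its source, and the source was not tested.

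**Figure D5:**
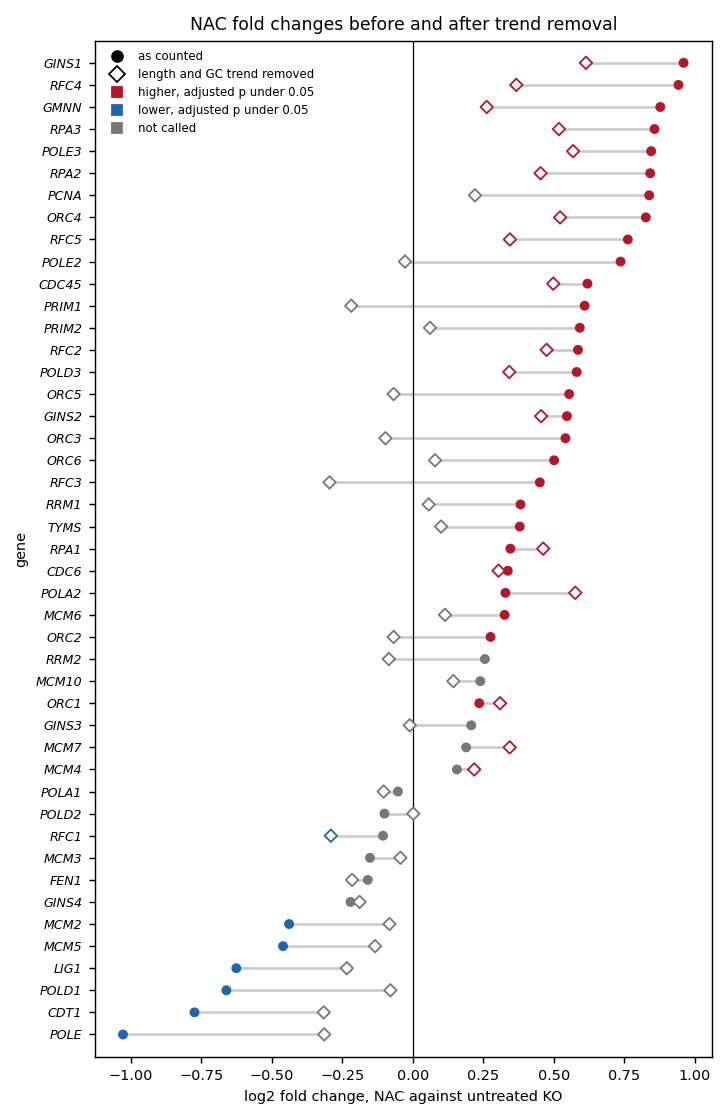
Log2 fold change with NAC in KO hESCs of each replication gene as counted (filled circles) and with the GC and length trend removed (open diamonds), in order of the values as counted. Red and blue mark calls at an adjusted p under 0.05; all 6 blue circles have grey diamonds, and 16 of the 28 red circles have red diamonds.

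Lower oxygen gave fewer calls, all towards higher levels. In KO hESCs at 5% O2, 7 of the 45 genes rose and none fell against normal O2, where 3.68% of all genes rose and 4.13% fell. At an unadjusted p under 0.05, 21 were higher and 1 was lower, against 12.4% in each direction over all genes. DESeq2 called 13 higher and 1 lower. The median log2 fold change was 0.21, against -0.00025 over all genes, and 37 of the 45 values were above 0, where 49.9% of all genes were. The groups did not overlap for 31 genes that were higher and 4 that were lower, against 30.7% and 30.3% of all genes. By the rule of fold and unadjusted p none passed, against 0.811% higher and 1.21% lower.

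The 7 genes were of 6 roles. ORC5 was at 25.7 CPM in both libraries at normal O2 and at 42.5 and 33.5 CPM at 5% O2 (0.57 ± 0.13, adjusted p = 0.0266). PRIM1, the catalytic primase subunit, was at 41.2 and 35.8 CPM and then at 53.6 and 53.2 CPM (0.47 ± 0.10, adjusted p = 0.0205). PCNA was at 161 and 153 CPM and then at 223 and 199 CPM (0.42 ± 0.09, adjusted p = 0.0201). None of these groups overlapped, and of these 3 genes ORC5 differed most between the libraries at 5% O2.

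RPA3 was at 40.8 CPM in both libraries at normal O2 and at 54.7 and 51.5 CPM at 5% O2 (0.38 ± 0.09, adjusted p = 0.0324). RRM2 was at 310 and 319 CPM and then at 419 and 393 CPM (0.37 ± 0.10, adjusted p = 0.0402). CDC6 (0.32 ± 0.08, adjusted p = 0.0370) and RPA1 (0.30 ± 0.08, adjusted p = 0.0384) completed the list. For RPA1 this was a move from 236 and 227 CPM to 294 and 279 CPM, above the 260 and 249 CPM of WT cells.

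POLE was at 148 and 139 CPM at normal O2 and at 103 and 114 CPM at 5% O2, without overlap, and was not called (-0.40 ± 0.12, adjusted p = 0.0589). It passed with DESeq2 (adjusted p = 0.0103). The MCM2-7 subunits had log2 fold changes of 0.05 to 0.27, and none was called.

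The calls at 5% O2 were few and moved with single libraries. Without either untreated KO library, or without replicate 1 at 5% O2, 0 genes were called higher, and without replicate 2 at 5% O2 the number was 3 (ORC5, PCNA and RPA2). With the length and GC trend removed, only RPA1 was called (0.35, adjusted p = 0.0269), while the median log2 fold change of the list was 0.13.

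The groups with NAC and at 5% O2 were also set against each other, since each was compared with the same untreated KO libraries. With NAC, 16 of the 45 genes were higher and 8 lower than at 5% O2, against 15.5% and 13.6% of all genes, with a median log2 difference of 0.17 where that of all genes was 0.04. The groups did not overlap for 23 higher and 11 lower genes, against 33.4% and 29.2% of all genes, and by the rule of fold and unadjusted p none passed, against 1.95% and 2.46%. The genes furthest apart were GMNN (0.78 ± 0.09, adjusted p = 0.000275), RFC4 (0.73 ± 0.10, 0.000739), GINS1 (0.73 ± 0.12, 0.00143), RFC5 (0.65 ± 0.10, 0.000892) and POLE3 (0.63 ± 0.09, 0.000889). In the other direction stood POLE (-0.62 ± 0.12, 0.00303), POLD1 (-0.57 ± 0.09, 0.00125), CDT1 (-0.53 ± 0.12, 0.00874), MCM5 (-0.51 ± 0.09, 0.00170) and MCM2 (-0.51 ± 0.09, 0.00169).

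GMNN was at 102 and 93.6 CPM at 5% O2 and at 173 and 164 CPM with NAC. MCM3, FEN1 and LIG1 were also lower with NAC than at 5% O2. For FEN1, which was not called against untreated KO in either group, this was 169 and 177 CPM at 5% O2 against 133 and 135 CPM with NAC (-0.37 ± 0.09, adjusted p = 0.00810). RPA1 was not called, with a 95% interval of the log2 difference from -0.13 to 0.21. Without NAC replicate 1, 17 genes were higher and 8 lower, with a median of 0.18, and without replicate 2 at 5% O2, 5 were higher and 3 lower. With the trend removed, 9 were higher and 6 lower, and the median difference was -0.00071.

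Other genes of the same pathways were counted from lists that the 45 do not share, to be read against the 23.8% of all genes that rose with NAC and the 20.8% that fell. With the length and GC trend removed, 2232 of all 15916 genes rose and 1888 fell. Of 13 further initiation genes tested, none was called in KO against WT or at 5% O2, and with NAC 5 rose and 3 fell, or 1 and 2 with the trend removed. DBF4, the activating subunit of the kinase CDC7, rose by 0.74 ± 0.12 (adjusted p = 0.000397; 0.18 with the trend removed), and TICRR, which carries CDK signals to origin firing, fell (-0.88 ± 0.09, adjusted p = 2.85e-05; -0.38 with the trend removed). Of 19 further fork and checkpoint genes tested, 6 rose and 4 fell with NAC, or 1 and 2 with the trend removed. Among them were DSCC1, of an alternative clamp loader (0.84 ± 0.10, and 0.16 with the trend removed), and CLSPN, the checkpoint mediator claspin (-0.87 ± 0.14, and -0.64). At 5% O2 only RAD17, the loader of the checkpoint clamp, was called (0.84 ± 0.19, adjusted p = 0.0258), and with the trend removed no gene of the list was.

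Of 8 genes of chromatin assembly and maintenance methylation, 3 rose and 4 fell with NAC, as many as with the trend removed. DNMT1, which copies DNA methylation behind the fork, was at 259 and 245 CPM in untreated KO and at 116 and 124 CPM with NAC (-1.07 ± 0.10). UHRF1, which recruits DNMT1, fell by 1.03 ± 0.10, and both stayed below 0 with the trend removed, at -0.60 and -0.67. At 5% O2 DNMT1 (-0.38) and UHRF1 (-0.46) also fell, with the histone chaperone subunit CHAF1A (-0.44). With the trend removed none of the 3 was called, at -0.19, -0.32 and -0.30.

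Of 13 nucleotide supply genes, 9 rose and 1 fell with NAC, or 6 and 1 with the trend removed. DCK, the deoxycytidine kinase of nucleoside salvage, rose from 29.0 and 30.9 CPM to 55.0 and 55.2 CPM (0.88 ± 0.11), and was at 0.0029 with the trend removed. CAD, of pyrimidine synthesis, fell (-1.01 ± 0.09, and -0.28 with the trend removed). Of 20 E2F and RB pathway genes, 3 rose and 8 fell with NAC, or 2 and 6 with the trend removed, including E2F7, a repressive E2F (-0.91 ± 0.12), and CCND1, a G1 cyclin (-0.77 ± 0.08). CCND1 was the only gene of that list called in KO against WT, where it was higher (0.54 ± 0.08, adjusted p = 0.00713).

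Of 22 genes of G2 and mitosis, 9 rose and 3 fell with NAC, or 7 and 6 with the trend removed, and their median log2 fold change went from 0.18 to -0.07. CDK1, the mitotic kinase, rose from 134 and 139 CPM to 276 and 227 CPM (0.88 ± 0.11), and MKI67, the proliferation marker, fell from 166 and 120 CPM to 54.7 and 50.3 CPM (-1.44 ± 0.15). MKI67 was also higher in KO than in WT (0.68 ± 0.15, adjusted p = 0.0405) and lower at 5% O2 (-0.82 ± 0.15, adjusted p = 0.0127). Most of its list went the other way. In KO against WT, 15 of the 22 genes were below 0, with a median of -0.11, and MKI67 was the only call. At 5% O2, 18 of the 22 were above 0, with a median of 0.15, and 4 were called higher and 1 lower. Neither MKI67 call held with the trend removed, at 0.51 and -0.53, and no other gene of the list was then called in these comparisons. With the trend removed, CDK1 with NAC was at -0.11 and MKI67 at -0.85. The lists for other stages of the cell cycle therefore also held calls in both directions with NAC.

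Some of the 45 counts depend on how reads shared with other loci were handled, which the sources do not state in full. Of the 31-base words of the canonical transcript, 44.6% of those of PRIM2 occurred elsewhere on the primary chromosomes of hg38, as did 28.3% for RRM2, 24.1% for ORC4, 23.4% for FEN1 and 16.7% for GINS2. In GENCODE v44, exons of other protein-coding genes covered 60.0% of the transcript of TYMS, 55.8% of POLA2, 37.5% of PRIM1 and 12.4% of POLD1. Non-coding genes covered 33.4% of GINS4 and 32.4% of MCM2. The values of these genes are the less certain ones.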

How the data were processed

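RNA of WA26 hESCs was sequenced from Illumina TruSeq libraries. The deposited values are whole-number counts per gene: after trimming and HISAT2 alignment (hg38), the authors ran featureCounts at default settings (per the submitters' notes, with FastQC 0.11.9). The annotation is not given in the sources used here. Of 12 labelled samples, 8 had counts and 4 (treated WT cells) were left out here. The members and lists were chosen with earlier results of these data known. The study's text calls the 2 libraries of a group biological replicates, without saying whether they came from separate cultures or clones, so p-values measure the spread between these libraries, which may be technical.

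Genes were filtered (filterByExpr, minimum count 10), scaled by TMM and tested with edgeR 4.0.16 (R 4.3.3) by the quasi-likelihood test in a single fit of 8 libraries with a term per group (4 residual degrees of freedom), Benjamini-Hochberg over 15916 genes, called at 0.05. Levels are CPM with TMM factors. SE is the log2 fold change over the root of F, and intervals are 95%. Replicates differed beyond sampling noise (chi-square per degree of freedom 9.53 to 30.7), and the median coefficient of variation of the 45 genes between replicates was 2.80% to 6.42%. Total counts of 31236968 to 41639350 limit precision less than the 2 libraries a group do. In each comparison the 5 called genes with the largest change in each direction without overlap were given in full, with RPA1; lists other than the 45 gave at most 3 genes by the same rule, and further genes were named after their values were seen. A gene that the rule would name is not reported here.

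Length and GC content came from GENCODE v44 canonical transcripts (96.0% of tested genes, all 45 members). The trend was removed with mgcv 1.9.3 smooths per library as offsets. Alternatives were RLE and upper quartile scaling, DESeq2 1.42.0, other filters, only the libraries compared, the replicate block, a fold rule (log2 fold change over 1 and unadjusted p under 0.05), leaving out each library, and trend removal. The fits were tested on simulated data. Promoter windows came from RefSeq.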

Additional observations from a re-analysis of the deposited data

How the results depend on the processing

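KO against WT gave 0 higher and 0 lower under every alternative, except 1 higher (POLE) with no low count filter and with only the libraries compared. NAC against untreated gave 28 higher and 6 lower, 0 and 1 by the fold rule, 18 and 1 with the length and GC trend removed, and 18 and 2 with that and the replicate block. Leaving out each library gave 22 to 27 higher and 6 to 7 lower. For 5% O2, the 7 higher and 0 lower became 13 and 1 with DESeq2, 11 and 1 with no filter, 17 and 1 with only the libraries compared, 11 higher with upper quartile scaling, 1 higher with the trend removed (with or without the block), and 0 by the fold rule. At least 10 counts in every library and the replicate block each gave 1 lower, which was POLE, and leaving out each library gave 0 to 3 higher and 0 lower. NAC against 5% O2 gave 16 and 8, 0 and 0 by the fold rule, 9 higher with the trend removed, 9 and 5 with the block as well, and 8 higher with only the libraries compared. Leaving out each library gave 5 to 17 higher and 3 to 9 lower, with 5 and 3 without replicate 2 at 5% O2. Its median log2 difference of 0.17 became -0.00071 with the trend removed and -0.0023 with the block too. The cause was not tested.

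The replicate numbers were not found to pair libraries: replicate 1 minus replicate 2 correlated at -0.023 to 0.082 between groups. With the replicate block NAC gave 29 higher and 6 lower. The genes that the naming rule picked, and RPA1 in every comparison, had 377 values under the alternatives. Of these, 328 were counted as unchanged, 49 lost the call and 0 called values reversed. RPA1 had no call to lose in KO against WT and in NAC against 5% O2, and an uncalled value counted as unchanged whatever its sign. The other genes had been picked for the largest changes. Of all called genes of the 45, 6 turned sign with NAC and 2 in NAC against 5% O2 with the trend removed. Other scalings moved the median of all genes by at most 0.029. The 95% intervals of the 45 genes were 0.34 to 0.73 log2 units wide, with 688 counts or more for each gene in each library.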
